A study of Mus musculus with 16 samples.

Results

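Immediate early genes were followed in mouse liver through 10 named members, Fos, Fosb, Jun, Junb, Egr1, Ier2, Ier3, Dusp1, Btg2 and Myc, out of 20284 gene symbols named on the array. They are given by name, and each was found through the RefSeq accession of its probe. Livers came from male ApoE KO mice that ate a high-fat diet; their labelled age is 8 weeks and tissue was taken after 8 weeks. Of the 16 mice, 8 received miR-185-inh, an inhibitor of the microRNA miR-185 delivered as antisense by lentivirus, and 8 received the control inhibitor ctrl-inh. Both groups therefore lacked apolipoprotein E, which clears lipoproteins from blood, and both ate the same diet. No mouse with intact ApoE, on another diet or without an inhibitor was part of the comparison. The promoter driving the inhibitors and the cells that took up the virus are not given in the sources used here.

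Immediate early genes are transcribed within minutes of a stimulus and need no new protein synthesis, because the factors that switch them on, such as SRF, its Elk partners and CREB, already sit in the nucleus and are phosphorylated by MAP kinases and protein kinase A. Many of their transcripts decay quickly, so a level is a snapshot. In liver they are known for their response to partial hepatectomy, growth factors, fasting and feeding hormones, and handling of the tissue.

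The sequence before the start site is shown for members whose levels are compared below because CREB binds the cyclic AMP response element (CRE) there, one of the classical entry points of a stimulus into this gene class. A RefSeq promoter window, GRCm38.p6, was matched for 7 of the 10 members (Btg2, Jun, Fosb, Junb, Fos, Dusp1 and Ier3). The windows below run 5′ to 3′ over the 250 bases before the annotated start, and capitals mark the CRE core TGACG or its reverse CGTCA.
Fos, chr12:85473640-85473889, forward strand: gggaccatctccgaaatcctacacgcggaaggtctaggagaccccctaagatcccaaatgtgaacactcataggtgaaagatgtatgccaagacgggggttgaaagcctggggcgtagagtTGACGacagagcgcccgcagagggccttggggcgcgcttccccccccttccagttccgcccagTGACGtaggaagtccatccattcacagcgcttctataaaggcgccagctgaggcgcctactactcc
Junb, chr8:84978749-84978998, reverse strand: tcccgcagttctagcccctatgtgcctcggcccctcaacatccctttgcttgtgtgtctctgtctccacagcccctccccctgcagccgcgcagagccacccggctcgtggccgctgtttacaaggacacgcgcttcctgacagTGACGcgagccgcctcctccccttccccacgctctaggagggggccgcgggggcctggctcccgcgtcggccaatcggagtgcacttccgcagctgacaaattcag
Btg2, chr1:134079156-134079405, reverse strand: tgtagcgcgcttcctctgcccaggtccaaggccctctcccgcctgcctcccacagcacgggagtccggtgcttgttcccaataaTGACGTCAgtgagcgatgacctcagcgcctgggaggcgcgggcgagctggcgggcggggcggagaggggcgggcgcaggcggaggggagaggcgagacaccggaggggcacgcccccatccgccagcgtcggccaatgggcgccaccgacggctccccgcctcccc
Dusp1, chr17:26508473-26508722, reverse strand: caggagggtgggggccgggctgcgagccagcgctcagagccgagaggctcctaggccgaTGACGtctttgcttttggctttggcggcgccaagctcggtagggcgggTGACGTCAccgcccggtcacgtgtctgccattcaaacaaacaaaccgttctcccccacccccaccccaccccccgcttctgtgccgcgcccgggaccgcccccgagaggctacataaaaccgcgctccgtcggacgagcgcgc

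The CRE core occurred on either strand in 5 of the 7 windows (Btg2, Fosb, Junb, Fos and Dusp1), against 17.8% of all 32851 promoter windows of that length. The full element TGACGTCA, which contains the core in both directions, lay 166 bases before the start of Btg2 and 143 bases before the start of Dusp1. It was found in 1.55% of all windows. Fos carried a core 129 bases and another 66 bases before its start, and Junb 1 core 106 bases before its start. The GC box GGGCGG was held by 6 of 7 windows, against 32.7% of all. The Egr site GCGNGGGCG was held by Btg2 and Fosb, against 4.70% of all windows. The E-box CACGTG was held by Dusp1 (6.02% of all windows) and TATAAA by Fos (12.4%). The AP-1 site TGANTCA and the CArG box were not found in any of the 7 windows, against 6.75% and 1.47% of all. These are matches of letters in a fixed window and were searched on both strands. Sites farther than 250 bases before the start lay outside the search, and Egr1, Ier2 and Myc had no window.

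Each member was measured by 1 probe, which was well above background and not saturated on all 16 arrays. The Fos probe was printed in 10 spots per array, the Myc probe in 2, and the others in 1. Levels are log2 of the processed Cy3 signal minus the 75th percentile of the array, so they compare livers for 1 probe and not one probe with another. Each array carried 59305 non-control spots, of which 58.75% to 74.83% were well above background. Median signals ran from 182.3 to 267.9, and the number of arrays limits the precision. The miR-185-inh arrays lay on one slide and the ctrl-inh arrays on another, so slide, scan and inhibitor cannot be told apart. The labels number the samples without saying that each is its own animal; a p-value here reflects the spread between samples, part of which may be technical. The labelled tissue held against its markers: all 8 hepatocyte genes listed, Alb and Apoa1 among them, were measured, with a mean level of 5.03 to 5.49 across miR-185-inh livers and 5.11 to 5.60 across ctrl-inh livers. In whole tissue, fewer cells of a type and less RNA per cell cannot be told apart.

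The groups were first compared member by member. None of the 10 members passed limma's test (0 of 10 at Benjamini-Hochberg adjusted p under 0.05), while 4.71% of all 25789 features tested did. At unadjusted p under 0.05 the counts were 0 of 10 members and 20.2% of all features. By the exact permutation test of each member alone, 0 of 10 also had p under 0.05, and the smallest p that the design allows is 0.000155. Differences ran from 0.854-fold to 1.28-fold, with 5 members above 0 and 5 below. Their median was 0.018 on the log2 scale, against -0.033 over all features. The levels of the groups overlapped for all 10 members, and 0.857% of all features had groups that did not overlap. The 1214 features called comprised 320 higher and 894 lower ones. That split was 549 higher and 602 lower after normexp background correction, 396 and 467 after quantile normalization, while no member was called under either.

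**Figure D1:**
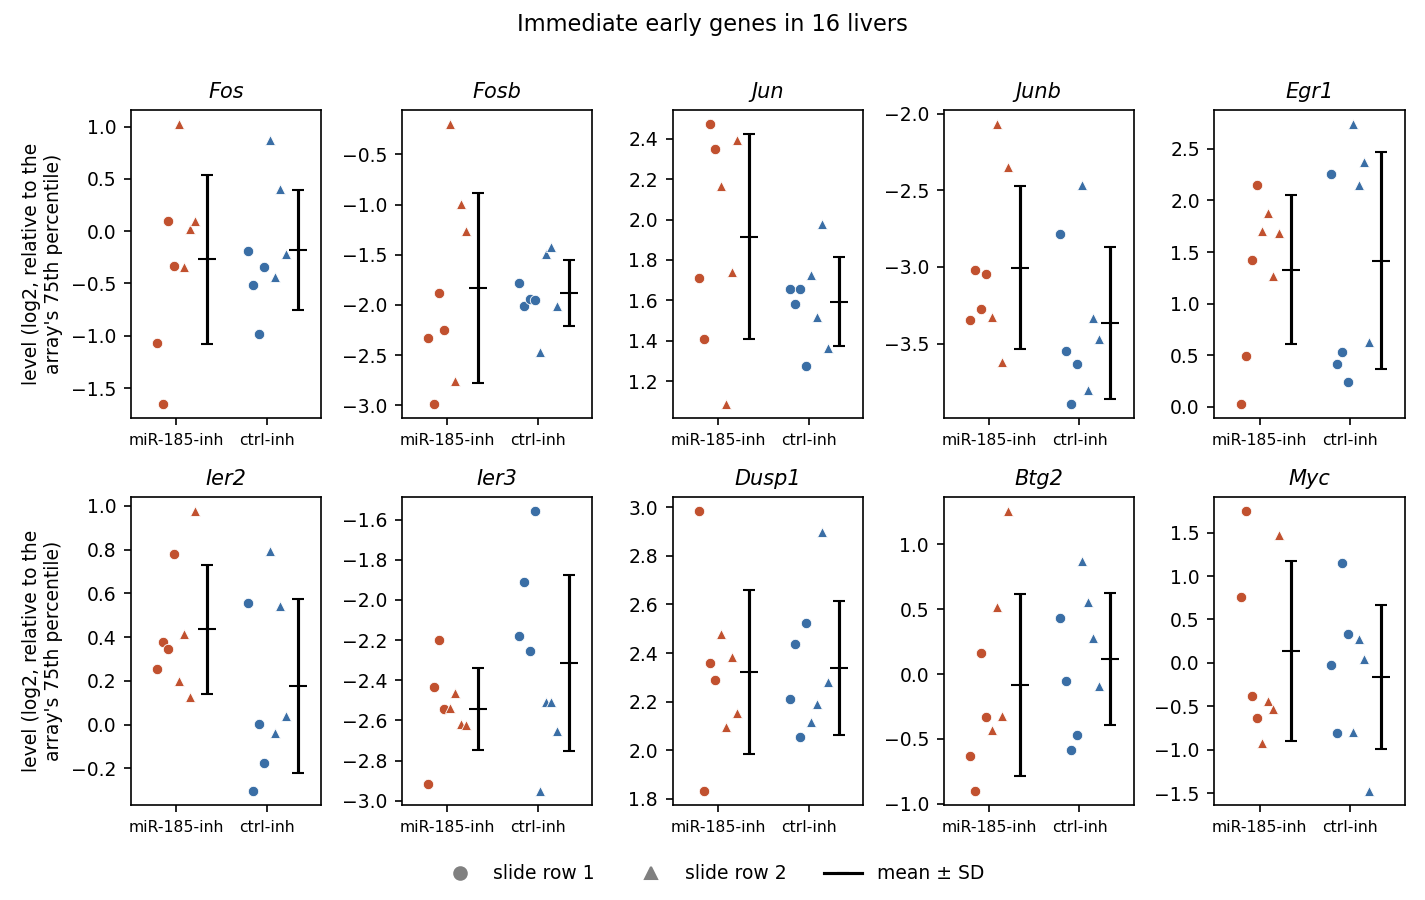
Level of each immediate early gene in every liver (log2, relative to the array's 75th percentile), miR-185-inh left and ctrl-inh right of each panel, with circles for slide row 1, triangles for slide row 2, and bars for the mean ± SD of 8 livers. The points of the groups overlap in all 10 panels, and Egr1 in ctrl-inh livers lies in 4 low and 4 high values.

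Fos and Fosb encode the Fos-family side of the dimeric factor AP-1, in which a Fos-family protein binds DNA paired with a Jun protein. Fos ran from -1.65 over a median of -0.16 to 1.02 in miR-185-inh livers, against -0.98, -0.28 and 0.87 in ctrl-inh livers. The lowest and the highest Fos value of all 16 livers were both miR-185-inh mice, 3 and 8. The means were -0.27 ± 0.81 and -0.18 ± 0.57 (SD, n = 8 each), a difference of -0.093 (SE 0.32, 95% interval -0.77 to 0.58, limma adjusted p = 0.906). Fosb ran from -2.99 over -2.06 to -0.20 in miR-185-inh livers, against -2.47, -1.94 and -1.42 in ctrl-inh livers. The 3 highest Fosb livers of all 16 were miR-185-inh mice 8 (-0.20), 10 (-0.99) and 12 (-1.26), and the 2 lowest were miR-185-inh mice 3 (-2.99) and 9 (-2.76). All ctrl-inh livers thus lay inside the range of the miR-185-inh livers. Of the miR-185-inh mice named for Fosb, 8, 9, 10 and 12 lay in slide row 2 and mouse 3 in row 1. Fosb averaged -1.83 ± 0.95 in miR-185-inh livers and -1.88 ± 0.33 in ctrl-inh livers, a difference of 0.053 (SE 0.33, 95% interval -0.63 to 0.74, limma adjusted p = 0.950).

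Jun and Junb encode the Jun-family side of AP-1, of which JunB is the weaker activator and can oppose c-Jun. Jun ran from 1.09 over 1.95 to 2.47 in miR-185-inh livers, against 1.27, 1.62 and 1.98 in ctrl-inh livers. Of the miR-185-inh livers, 6 lay above the ctrl-inh mean and mouse 9 held the lowest Jun value of all 16. The difference was 0.32 (SE 0.18, 95% interval -0.06 to 0.70), with a limma adjusted p of 0.343 and an exact permutation p of 0.124, the smallest of the 10. Junb ran from -3.62 over -3.16 to -2.07 in miR-185-inh livers, against -3.90, -3.51 and -2.47 in ctrl-inh livers. Although 7 of 8 miR-185-inh livers exceeded the ctrl-inh mean of -3.37, the difference of 0.36 (SE 0.24) was within the spread (limma adjusted p = 0.428; exact permutation p = 0.184). It was the largest difference of the 10 members.

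Egr1 encodes a zinc finger factor that reads GC-rich sites and follows serum, growth factors and MAP kinase activity. It ran from 0.024 over 1.55 to 2.15 in miR-185-inh livers, against 0.24, 1.38 and 2.74 in ctrl-inh livers. The ctrl-inh values fell in 2 separate sets, with mice 2, 3, 4 and 12 between 0.24 and 0.62 and mice 1, 8, 9 and 11 between 2.15 and 2.74. No ctrl-inh liver lay between them, whereas 5 of 8 miR-185-inh livers did, at 1.27 to 1.88. Of the low ctrl-inh set, mice 2, 3 and 4 lay in slide row 1 and mouse 12 in row 2. Of the high set, mice 8, 9 and 11 lay in row 2 and mouse 1 in row 1. The group means were 1.33 ± 0.72 and 1.42 ± 1.05 (SD, n = 8 each), and the difference of -0.089 had a 95% interval of -0.96 to 0.78 (limma adjusted p = 0.931). Myc encodes a growth-promoting factor that binds E-boxes with its partner Max. It ran from -0.93 over -0.41 to 1.75 in miR-185-inh livers, against -1.48, 0.011 and 1.15 in ctrl-inh livers. Its miR-185-inh mean of 0.13 ± 1.04 was carried by mice 3 (1.75), 12 (1.47) and 1 (0.75), the other 5 lying at -0.39 or lower, and the ctrl-inh mean was -0.16 ± 0.83. The difference of 0.30 had the widest interval of the 10, -0.61 to 1.20 (limma adjusted p = 0.756).

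Ier2 and Ier3 encode small proteins first found as growth-factor responses, of which Ier3 bears on cell survival under stress. Ier2 ran from 0.13 over 0.36 to 0.98 in miR-185-inh livers, against -0.30, 0.021 and 0.80 in ctrl-inh livers. Here 7 of 8 miR-185-inh livers lay above the ctrl-inh mean, and the difference was 0.26 (SE 0.16, limma adjusted p = 0.408, exact permutation p = 0.162). Ier3 ran from -2.92 over -2.54 to -2.20 in miR-185-inh livers, against -2.95, -2.38 and -1.56 in ctrl-inh livers. Only 1 miR-185-inh liver lay above the ctrl-inh mean, for a difference of -0.23 (SE 0.16, limma adjusted p = 0.463, exact permutation p = 0.216). The miR-185-inh values sat inside the ctrl-inh range.

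Dusp1 and Btg2 act as brakes: Dusp1 is a phosphatase that switches off MAP kinases, and Btg2 is an antiproliferative protein that recruits the mRNA deadenylase complex. Dusp1 ran from 1.83 over 2.32 to 2.99 in miR-185-inh livers, against 2.05, 2.25 and 2.90 in ctrl-inh livers. Its difference, -0.017 with a 95% interval of -0.32 to 0.29, was the smallest of the 10 (limma adjusted p = 0.966). Btg2 ran from -0.90 over -0.33 to 1.26 in miR-185-inh livers, against -0.59, 0.11 and 0.87 in ctrl-inh livers. The 2 ends of the Btg2 range were again miR-185-inh livers, mice 3 and 12, and the difference was -0.20 (SE 0.28, 95% interval -0.79 to 0.39, limma adjusted p = 0.744).

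**Figure D2:**
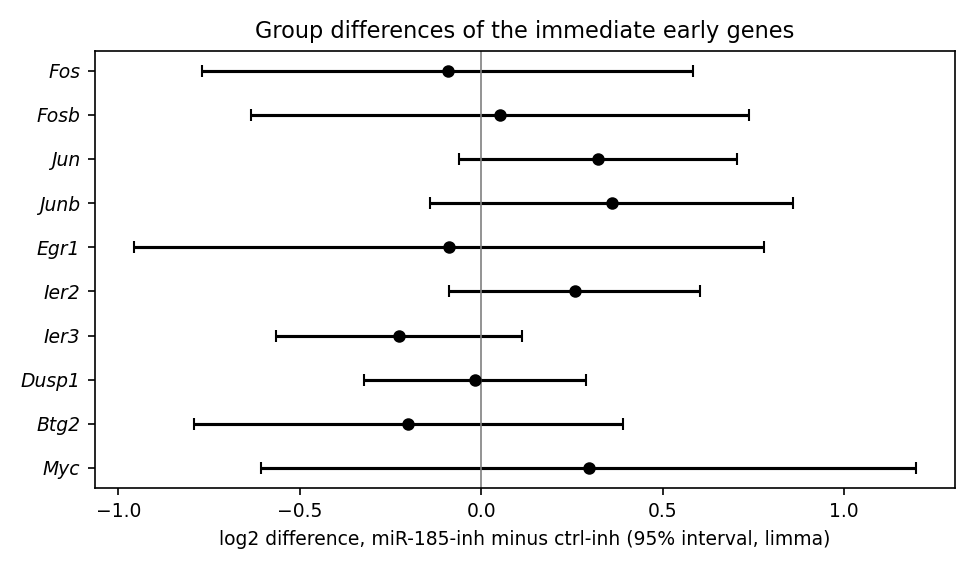
Difference between group means of each member (log2, miR-185-inh minus ctrl-inh) with its 95% interval from limma. Each interval includes 0, and those of Myc, Egr1, Fosb and Fos are the widest.

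The members differed more from liver to liver than most features did. Pooled over both groups, the within-group SD of 6 of the 10 members lay above the 90th percentile of all features tested, namely Myc (SD 0.94, percentile 99.5), Egr1 (0.90, 99.4), Fosb (0.71, 98.2), Fos (0.70, 98.1), Btg2 (0.61, 96.7) and Junb (0.52, 94.0). The other 4, Jun, Ier2, Ier3 and Dusp1, had SDs of 0.31 to 0.39. The median SD was 0.563 over the members and 0.209 over all features. From the lowest to the highest of 16 livers, Myc covered a 9.36-fold range, Fosb 6.93-fold, Egr1 6.58-fold and Fos 6.39-fold, while Dusp1 covered 2.23-fold. Of the other immediate early genes listed, 18 of 45 tested also lay above the 90th percentile.

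**Figure D3:**
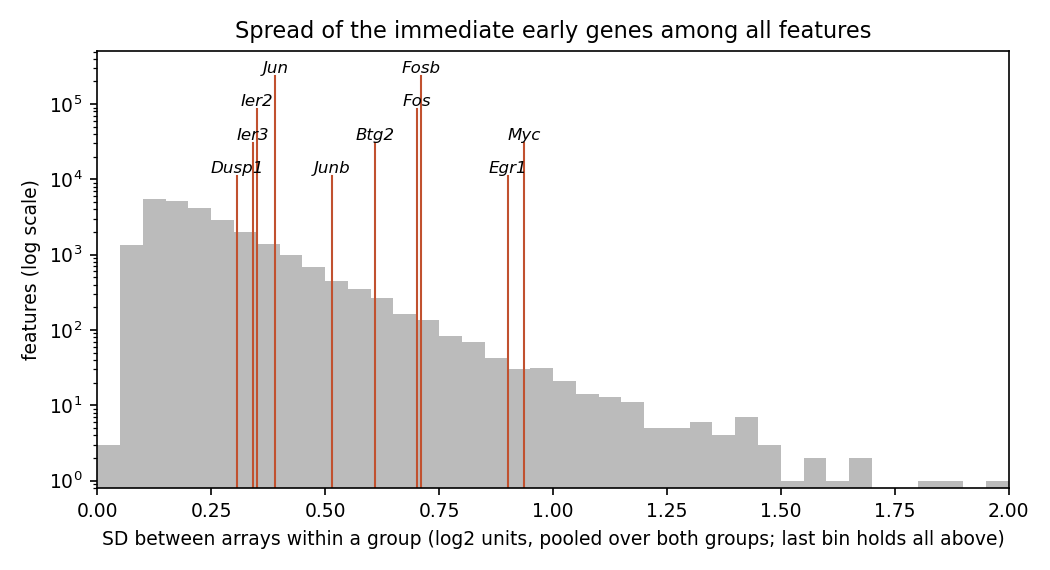
Histogram of the SD between arrays within a group (log2 units, pooled over both groups) for all features tested, with a line at each member and a log scale for the number of features. Egr1 and Myc lie near 0.9 and Dusp1 near 0.3, against a median of 0.209 over all features.

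Repeated spots on the array gave a measure of error for Fos and Myc. Spots flagged as outliers, 12 of 160 for Fos and 0 of 32 for Myc, were left out first. The SD between the Fos spots of 1 array had a median of 0.056, so the SD of 0.70 between arrays was 12.6 times as large. For Myc the SD between its 2 spots had a median of 0.040, and the SD between arrays was 23.5 times as large. Spots of 1 array share the RNA, labelling and hybridisation, so this covers the error of the spot alone.

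The SD in miR-185-inh livers was above that in ctrl-inh livers for 7 members, by 2.88 times for Fosb and 2.32 times for Jun, and below it for Ier2 (0.739 times), Egr1 (0.687) and Ier3 (0.462). These ratios of spread are a description and were not tested.

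Covariation of the members across livers was examined next. The value of each liver was taken as its distance from its own group mean, and 45 pairs were tested by permutation of livers within groups. Among all features, 4.18% had r of 0.5 or more with Junb, 3.62% with Ier2, 8.39% with Btg2, 6.89% with Egr1 and 5.25% with Fos. Of the other members, 3 reached that limit with Junb, 3 with Ier2 and 4 each with Btg2, Egr1 and Fos. After adjustment over the 45, 4 pairs passed (adjusted p = 0.0455 each), Junb with Ier2, Junb with Btg2, Egr1 with Btg2 and Egr1 with Fos. This count moved with the settings: it was 6 after normexp, 4 with the other percentile, 4 with the authors' value table, 1 with Spearman's rho, 0 after quantile normalization, 0 with slide row means also removed and 0 of 36 without the Egr1 pairs. With row means removed r was 0.76 for Junb with Ier2 and 0.69 for Junb with Btg2, close to the values below. It fell from 0.69 to 0.58 for Egr1 with Btg2 and from 0.65 to 0.53 for Egr1 with Fos. Within a group alone, 0 pairs passed in miR-185-inh livers and 0 in ctrl-inh livers (2 and 8 at unadjusted exact permutation p under 0.05). With 1 liver left out, 4 to 6 pairs passed without miR-185-inh mouse 7, 8 or 10 or ctrl-inh mouse 9, 1 passed without miR-185-inh mouse 9, and 0 passed without any one of the other 11 livers. In all, 24 pairs had a positive r and 21 a negative one, with a median of 0.107, and 17 of the 45 were positive in both groups.

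Junb and Ier2 gave r = 0.73 and rho = 0.77 over the 16 livers (permutation p = 0.00248 for r). Within miR-185-inh livers r was 0.61 (exact permutation p = 0.0762, adjusted 0.600) and within ctrl-inh livers 0.84 (exact permutation p = 0.00660, adjusted 0.0990). Without the 2 livers farthest from the median of Junb r was 0.80, and it was 0.78 within slide row 2 and 0.75 within slide row 1. With the 2 farthest livers of each group left out, r was 0.77 in miR-185-inh and 0.49 in ctrl-inh livers. The sign was thus positive in both groups and both rows, while neither group alone passed the adjustment. Ier2 ranked 52 of 25623 features by its r with Junb, and Btg2 ranked 89. By r with Egr1, Btg2 ranked 343 and Fos 504.

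Junb and Btg2 gave r = 0.70 and rho = 0.55 (adjusted permutation p = 0.197 for rho). Within groups r was 0.71 in miR-185-inh livers (exact permutation p = 0.0498, adjusted 0.600) and 0.71 in ctrl-inh livers (exact permutation p = 0.0467, adjusted 0.247), with 0.75 for the arrays of slide row 2 and 0.55 for those of row 1. Over all livers r was 0.62 without the 2 farthest from the median of Junb. Without the 2 farthest of each group it was -0.30 in miR-185-inh and 0.29 in ctrl-inh livers, so the relation within each group rests on those livers. For Egr1 no further r over all livers is given, because its ctrl-inh values fell in separate sets. Within miR-185-inh livers Egr1 gave r = 0.54 with Btg2 (exact permutation p = 0.160) and 0.67 with Fos (exact permutation p = 0.0719). Without the 2 miR-185-inh livers farthest from the median of Egr1, r with Btg2 was 0.027. The r of Egr1 with Fos was 0.65 without the 2 miR-185-inh livers farthest from the median of Fos. For that pair no r was computed without the livers farthest in Egr1. In ctrl-inh livers the set with high Egr1 held the 4 highest Btg2 values, between 0.27 and 0.87, above the other 4 at -0.053 or lower. Of that set, mice 8, 9 and 11 lay in slide row 2 and mouse 1 in row 1.

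**Figure D4:**
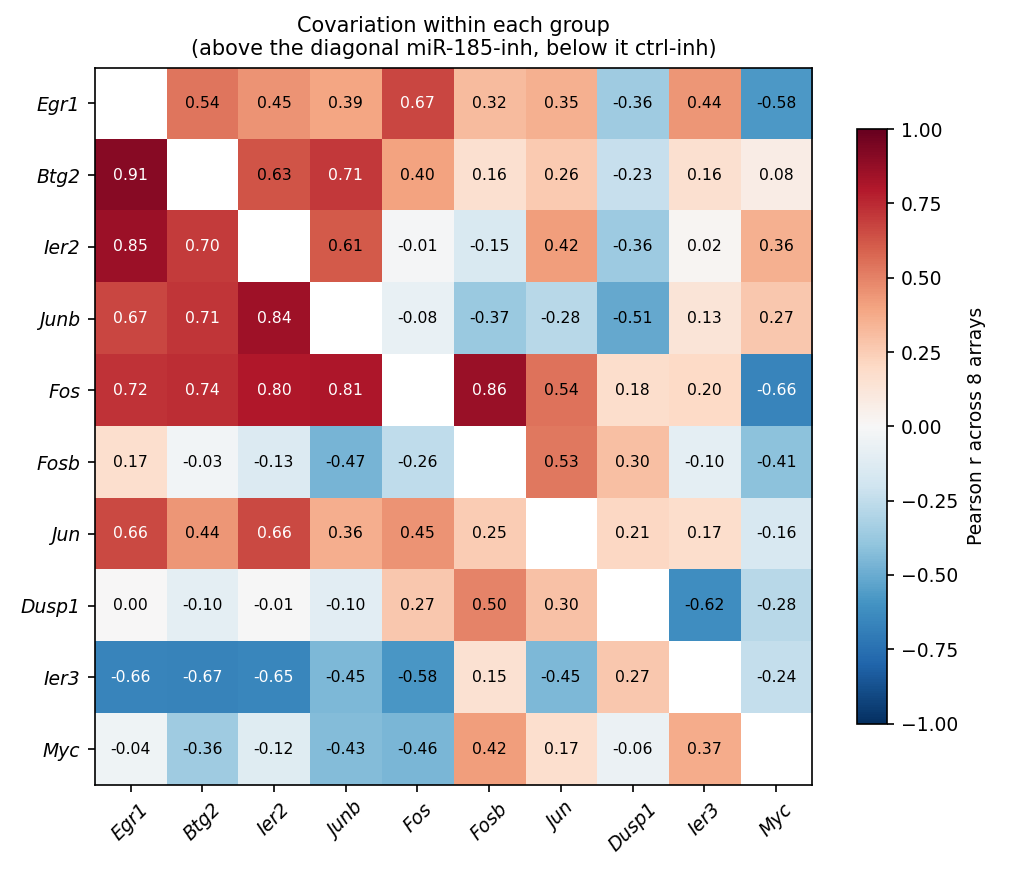
Pearson r of each pair of members across 8 arrays, above the diagonal in miR-185-inh and below it in ctrl-inh livers. Red is positive and blue negative; 17 of 45 pairs are positive in both groups, and Fos with Fosb is 0.86 in miR-185-inh and -0.26 in ctrl-inh livers, or 0.62 and 0.57 without the 2 farthest livers of each group.

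Fos and Fosb belong to one family. Their r was 0.86 in miR-185-inh livers (exact permutation p = 0.00556, adjusted over 45 pairs 0.250) and -0.26 in ctrl-inh livers (exact permutation p = 0.540). With the 2 livers farthest from the median of Fos left out of each group, r was 0.62 in miR-185-inh and 0.57 in ctrl-inh livers, so the negative sign in ctrl-inh rests on 2 livers. The difference between the groups was not tested. Over all 16 livers r was 0.62 and rho 0.54 (adjusted permutation p = 0.148 for r), and this pooled r was 0.18 without the 2 farthest of the 16 livers. Fos and Myc ran in opposite directions, with r = -0.59 (adjusted permutation p = 0.148), -0.66 in miR-185-inh livers and -0.46 in ctrl-inh livers. That r was -0.34 without the 2 farthest of all livers, -0.15 and 0.14 without the 2 farthest of the miR-185-inh and of the ctrl-inh livers, and -0.22 in slide row 2 against -0.84 in row 1.

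**Figure D5:**
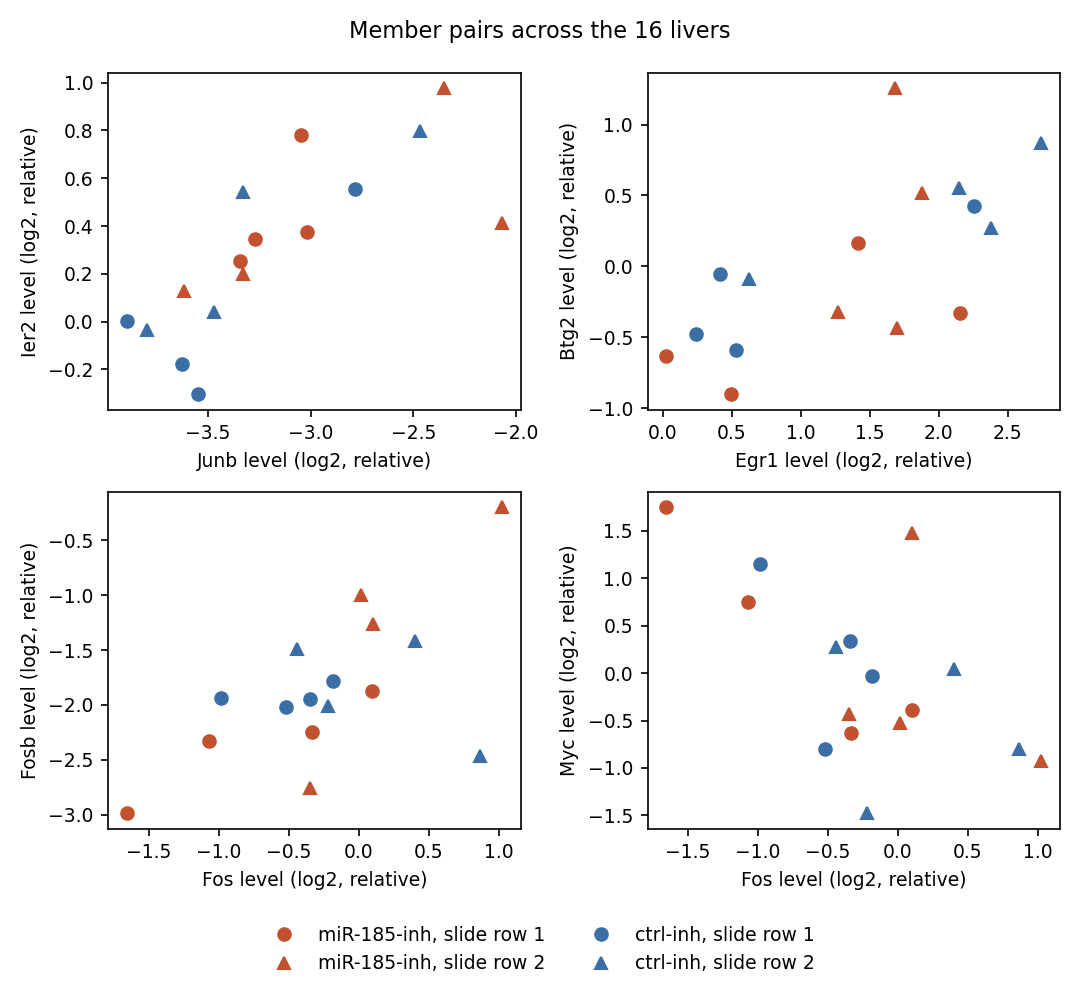
Levels of 4 pairs of members in every liver (log2, relative to the array's 75th percentile), with orange for miR-185-inh, blue for ctrl-inh, circles for slide row 1 and triangles for slide row 2. Junb and Ier2 climb together in both colours, Egr1 in ctrl-inh livers splits in a low and a high set, and the Fos and Fosb panel has its highest point at miR-185-inh mouse 8.

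Features outside the 10 members that followed them most closely, by r of group-centred levels over the 16 livers, are given as a ranking without a test. Only features with a value on all 16 arrays and a regular gene symbol (no predicted-gene, Rik, Olfr or Vmn names) entered. Features left out may lie closer. Closest to Fos were Fgd6 (0.83), Otx2 (0.78), Il17rb (0.77), Rfx7 (0.77) and Cnr2 (0.75). Closest to Junb were Stox2 (0.84), the neutrophil-attracting chemokine Cxcl1 (0.83), Zfp879 (0.83), Cenpc1 (0.77) and Krt79 (0.77). Closest to Myc were Phlda1 (0.92), itself an early response gene, Foxq1 (0.91), Zfp30 (0.88), Snhg16 (0.86) and Foxl2os (0.84). For Egr1 the same ranking gave Wdr70, Unk, the kinase Pim1, Ints2 and Nrip1, with the separate sets of ctrl-inh livers contributing.

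Each slide held 2 rows of 4 arrays, and the rows also divide the mice by number, so position and mouse number cannot be told apart. Row 2 differed from row 1 in 0 of 10 members in miR-185-inh livers (0% of all features) and in 0 of 10 in ctrl-inh livers (4.65% of all features) by limma. At unadjusted p under 0.05 the miR-185-inh rows differed in 1 member, Fos (11.6% of all features), and the ctrl-inh rows in 1, Ier3 (26.8% of all features). Neither count stands above the share over all features. The Ier3 level was -2.65 ± 0.21 in ctrl-inh row 2 and -1.98 ± 0.32 in ctrl-inh row 1 (SD, n = 4 each), a difference of -0.68 (SE 0.17, limma adjusted p = 0.0585). That difference passed under 3 of the other settings, with adjusted p = 0.0330 after normexp, 0.0345 without a filter on dim probes and 0.0462 with probes well above background on all arrays. Those settings called 11.1%, 16% and 6.61% of all features between the ctrl-inh rows, so 1 of 10 members is near the general share. Ier3 in miR-185-inh livers was -2.56 in row 2 and -2.52 in row 1. The test of the difference between the groups' row effects called 0 of 10 members (0.372% of all features).

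Over both groups, with group as a term, row 2 against row 1 called 0 of 10 members and 2.7% of all features (4 members and 20.1% of features at unadjusted p under 0.05). Fos was higher in row 2 by 0.80 (SE 0.26, limma adjusted p = 0.109), by 0.94 in miR-185-inh and 0.66 in ctrl-inh livers. Egr1 was 0.86 higher in row 2 (adjusted p = 0.200) and Btg2 0.62 higher (adjusted p = 0.164). Ier3 ran the other way, at -2.65 in row 2 and -1.98 in row 1 of ctrl-inh livers. In miR-185-inh livers it was at -2.56 and -2.52. Fosb in miR-185-inh livers averaged -1.30 ± 1.07 in row 2 and -2.36 ± 0.46 in row 1 (SD, n = 4 each). Its ctrl-inh means were -1.85 in row 2 and -1.92 in row 1. The share of spots well above background also differed by row, at 60.67% to 62.25% in row 2 and 62.47% to 67.06% in row 1 of the miR-185-inh slide, and at 58.75% to 64.25% in row 2 and 68.61% to 74.83% in row 1 of the ctrl-inh slide. The part of position in these differences was not tested.

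The wider immediate early class gave the same count. Of 50 further genes of the class, among them Atf3, Klf4, Nr4a1 and Zfp36, 45 were tested, and 0 passed limma (5 at unadjusted p under 0.05, against 20.2% of all features), with a median difference of 0.073. Among 16 tested partners and opponents of the members, 1 was higher (4.71% of all features passed in either direction), Mxd4, which competes with Myc for Max. It averaged 2.09 ± 0.12 in miR-185-inh and 1.82 ± 0.11 in ctrl-inh livers (SD, n = 8 each), a difference of 0.27 (SE 0.065, limma adjusted p = 0.0269).

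Stress pathways that share stimuli with the class were counted the same way, beside 4.71% of all features that passed limma in either direction. Of 10 glucocorticoid-responsive genes 1 was higher, Fkbp5, a co-chaperone of the glucocorticoid receptor, at 2.44 ± 0.40 in miR-185-inh and 1.88 ± 0.22 in ctrl-inh livers (difference 0.56, limma adjusted p = 0.0413), and the list's median was 0.0031. Of 10 heat shock genes tested 2 were lower, the chaperones Hsph1 (difference -0.63, limma adjusted p = 0.0436) and Hsp90aa1 (-0.28, adjusted p = 0.0475), with a list median of -0.071.

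Blood and non-parenchymal cells can bring immediate early transcripts into whole liver. All 12 neutrophil genes had a difference below 0, with a median of -1.11, and 2 passed limma, Ltf and Ngp. At unadjusted limma p under 0.05, 8 of the 12 passed, against 20.2% of all features. Over all 25789 features, 14964 lay below 0 and 894 were called lower. The mean level of the neutrophil list ran from -3.53 to -1.64 in miR-185-inh livers and from -2.69 to -0.40 in ctrl-inh livers, so the groups overlapped. Lists of Kupffer cell, lymphocyte, endothelial, stellate, cholangiocyte and hepatocyte markers held no gene that passed. All 11 Kupffer cell genes tested also lay below 0, with a median of -0.15. Set against these list levels and the signal measures of the arrays, the 10 members gave 140 correlations over the 16 livers, of which 0 passed the permutation test (smallest adjusted p 0.770).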

How the data were processed

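Liver RNA of 16 mice was hybridised to 1-colour Agilent arrays, 1 per sample, and groups were read from the treatment field of the labels. Per the file headers, the deposited spot intensity was background-subtracted and detrended by Feature Extraction 11.5.1.1, whereas the submitters' processing notes give version 9.1. The authors' deposited value table is on a log2 scale and equals log2 of the processed intensity minus 1 constant per array (its column medians ran from -1.296 to -1.218). It was not centred by gene, and the choice of the constant is not stated there.

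From these files log2 of the processed intensity was computed and the 75th percentile of each array, taken over spots that are no controls, was subtracted. Outlier spots were left out and spots of a probe averaged. Probes well above background on at least 8 of 16 arrays were kept without regard to group, with the brightest probe standing for a gene. Of 55681 probes 26762 were named through RefSeq accessions in the table of GRCm38.p6, used for names and promoter windows alone because the array grid is on mm9.

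All features were fitted with limma 3.58.1 (R 4.3.3; lmFit, eBayes; two-sided; Benjamini-Hochberg over all features; threshold 0.05). Single members had an exact permutation test over all splits into 8 and 8. Pairs had a permutation test with 100000 shuffles within groups or the exact test over 40320 pairings within a group. These tests were coded with numpy 2.4.6, and ranks for rho came from scipy 1.17.1. The fit was tested on simulated data. Members and gene lists were chosen with earlier results of these data known. The named genes are all members and called genes of each list (up to 4 by p). Also named are the 5 features closest to Fos, Junb, Egr1 and Myc among those with a regular gene symbol. Normexp (offset 50), an alternative, was run on the median spot signal, since no mean spot signal was read. Other alternatives were quantile normalization, another percentile, the authors' table, other filters, array weights, slide row and column, single slide rows, a replicate block and leaving out each array.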

Additional observations from a re-analysis of the deposited data

How the results depend on the processing

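No member was called under any of the 30 alternatives to the group comparison, and the lowest limma adjusted p of a member was 0.127. At unadjusted limma p under 0.05, 3 of 10 members passed without ctrl-inh mouse 8, beside 4871 of 25789 features. Single members passed after normexp, with array weights, with row 1 alone and without miR-185-inh mouse 3 or 9. None passed under the others. Ier2 went from 0.26 to 0.42 after normexp (limma unadjusted p = 0.0156, adjusted 0.132). The count of all features called was 466 with slide row 2 alone, 0 with row 1 alone and 735 to 1580 with 1 array left out. Mouse numbers shared by the groups did not pair the arrays (correlations of same-numbered arrays -0.13 to 0.11). With the 5 shared numbers as a replicate block 0 features were called, as without the block on the same 10 arrays. Directions of Jun, Junb, Ier2 and Btg2 held under all 30. With array weights the difference was 0.21 for Fos, 0.21 for Egr1, 0.045 for Dusp1 and -0.081 for Myc. With row 1 alone it was -0.44 for Fosb, 0.16 for Egr1 and 0.059 for Dusp1, and with row 2 alone 0.045 for Fos and 0.093 for Ier3. Dusp1 was at 0.15 after normexp, and at 0.14 with the replicate block and at 0.14 on the same arrays without it. With 1 array left out the range was -0.28 to 0.10 for Fos, -0.18 to 0.22 for Fosb, -0.26 to 0.100 for Egr1 and -0.11 to 0.063 for Dusp1, and, with no change of sign, 0.065 to 0.48 for Myc, -0.39 to -0.084 for Btg2, -0.32 to -0.12 for Ier3, 0.18 to 0.35 for Ier2, 0.24 to 0.44 for Jun and 0.23 to 0.49 for Junb. The cause was not tested. The ctrl-inh rows differed in 1 member, Ier3, after normexp, without a filter and with the strictest filter, which test different numbers of features or signals. Of the member pairs, 6 passed after normexp, 4 with the other percentile, 4 with the authors' table, 1 with rho, 0 after quantile normalization, 0 with row means removed, 0 without Egr1 and 0 to 6 with 1 array left out. The alternatives without Egr1, with the 10 arrays and with rows over both groups were chosen after seeing the data. The number of members above the 90th percentile of spread was 7 after normexp, 6 after quantile normalization and 6 with the other percentile.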
